A study of Mus musculus with 3 samples.

Results

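The genes described here make, load and display the peptide antigens of MHC class I. They are the heavy chains H2-K1 and H2-D1, the light chain B2m, the peptide transporter subunits Tap1 and Tap2, the loading factor Tapbp, and the inducible proteasome subunits Psmb8, Psmb9 and Psmb10. The rule names them by their place in the pathway and uses no measured value, but it was written with earlier results of these data known. The 9 genes were all found among the 23473 genes with at least 1 unique molecular identifier (UMI, a tag that marks 1 captured mRNA molecule) in the cultured cells. The study sorted Sca1+/cKit- cells (positive for a surface marker of mesenchymal progenitors, negative for one of mature Leydig cells) from the testes of adult C57BL/6 males aged 8 to 12 weeks and steered them in culture towards Leydig cells, the androgen-making cells of the testis. Drop-seq, which captures single cells with barcoded beads in droplets, was done on 1 library each for days 4, 7 and 14 of culture.

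Every culture had been plated at 100000 cells per well on Matrigel, left to recover for 18 h in serum, and expanded for 3 days with PdgfAA, PdgfBB and Fgf2 (each at 10 ng/ml) and with SAG, an activator of Hedgehog signalling, at 0.5 µM. The medium was then changed to one that held the same factors together with 5 mM LiCl2 and 10 µM DAPT, an inhibitor of Notch processing. By this schedule the day 4 cells had spent 0 days in the second medium, the day 7 cells 3 days and the day 14 cells 10 days. Time in culture, the change of medium and the library therefore cannot be told apart between days. The sort takes a mixed cell population, not a clone, and how many animals went into a library is not given in the sources used here.

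In most cell types, proteasomes cut proteins into peptides, the Tap1-Tap2 transporter pumps them into the endoplasmic reticulum, and Tapbp (tapasin) holds empty class I molecules at the transporter until a peptide fits. The heavy chain with its light chain B2m then carries the peptide to the cell surface, where T cells and natural killer cells read it. Interferons raise this pathway in fibroblasts and other stromal cells, and they exchange the catalytic proteasome subunits Psmb5, Psmb6 and Psmb7 for Psmb8, Psmb9 and Psmb10, which form the immunoproteasome.

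Of the 9 genes, 7 lie on mouse chromosome 17 in the MHC or next to it. On GRCm38, with the GENCODE M21 annotation, Tapbp spans chr17:33915899-33929292, H2-K1 chr17:33996017-34000347, and H2-D1 chr17:35262730-35267499. Between the heavy chains stands a tight group of Psmb9 (chr17:34181987-34187764), Tap1 (chr17:34187553-34197225), Psmb8 (chr17:34197721-34201454) and Tap2 (chr17:34203527-34216321). B2m (chr2:122147686-122153083) and Psmb10 (chr8:105935735-105938444) lie elsewhere. Psmb9 and Tap1 run in opposite directions and overlap at their starts, and the antisense gene Gm20496 overlaps Psmb8 and Tap2. Whether the counting used strand is not stated in the sources, but Gm20496 itself held only 6, 1 and 2 UMIs on days 4, 7 and 14, and Gm15821, antisense to Tap2, held 1, 0 and 2. H2-K1 and H2-D1 are close in sequence to each other and to the H2-Q genes, so the division of reads among them is uncertain.

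The promoter sequences below are shown because the heavy chains and the light chain held most of the members' UMIs, and because the interferon element known from this gene family can be read in them directly. RefSeq promoter windows on GRCm38.p6 (250 bases before to 50 after each start) were at hand for 8 of the 9 genes, in 9 windows since H2-K1 has 2 starts. Tap2 had none. The first pair of lines gives 30 bases of H2-K1 (chr17:34000429-34000458, minus strand) and of H2-D1 (chr17:35262923-35262952, plus strand), 5′ to 3′. Capitals mark an NF-kB-type word (GGGANTNCC) and the reverse complement of an ISRE-type word (GAANNGAAA), the letters to which NF-kB and interferon regulatory factors are known to bind. The third line gives the 150 bases before the B2m start (chr2:122147537-122147686, plus strand), in which capitals mark an ISRE-type word with another A in its first part (GAAANNGAAA) and a reversed CCAAT box.
H2-K1: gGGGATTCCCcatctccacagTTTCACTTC
H2-D1: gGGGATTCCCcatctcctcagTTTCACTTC
B2m: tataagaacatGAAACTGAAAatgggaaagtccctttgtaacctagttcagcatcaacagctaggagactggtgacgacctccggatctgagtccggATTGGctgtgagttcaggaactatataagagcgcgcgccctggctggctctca

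The H2-K1 and H2-D1 stretches were the same at 29 of 30 bases. In H2-K1 they lie 111 to 82 bases before the outer start. In H2-D1 they lie 171 to 142 bases before the RefSeq start, a place inside the gene as GENCODE draws it. Searched on both strands, the NF-kB-type word was present in 3 of the 9 member windows, all of the heavy chains, against 3.95% of the 32851 windows in the table. The ISRE-type word was present in the same 3 windows, against 7.52% of all windows, and its longer form in the B2m window only, against 3.44%. Both H2-K1 windows overlap and hold the same NF-kB-type word (chr17:34000449-34000457), ISRE-type word (chr17:34000429-34000437) and CCAAT boxes. The counts of windows thus hold the H2-K1 sites more than once. A CCAAT box was present in 7 member windows, against 37.4% of all windows, and that of Psmb9 and Tap1 is the same 5 bases (chr17:34187334-34187338), since their windows overlap. A GAS-type word (TTCNNNGAA), known from interferon gamma response elements, was present in the Psmb8 window only, against 8.30% of all windows. The Psmb8 window stands on a RefSeq start (chromosome 17, base 34198195) that lies inside the gene as GENCODE draws it. The words are described by their letters, and no binding was measured.

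The day 4 library held 2980 cells with 12677110 UMIs, that of day 7 held 2171 cells with 11627440, and that of day 14 held 973 cells with 5324400. Median depth was 2886.5 to 3285 UMIs per cell, and no cell barcode was shared between libraries. Levels are UMIs per 1000000 UMIs of the library (CPM) with exact Poisson 95% intervals, and ratios carry exact 95% intervals from the same counts. Such intervals hold the error of counting alone. No day has a replicate, so there is no test, and the comparisons are of these libraries. Ly6a, the gene of the Sca1 marker used in the sort, stood at 523, 64.2 and 358 CPM on days 4, 7 and 14, and it too is known to respond to interferon.

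Psmb8, the inducible subunit that takes the place of Psmb5, differed most between the days. It stood at 97.8 CPM on day 4 (interval 92.4 to 103), at 19.5 CPM on day 7 (17.1 to 22.2) and at 15.4 CPM on day 14 (12.2 to 19.1), from 1240, 227 and 82 UMIs. Its level was 5.01-fold lower on day 7 than on day 4 (4.35 to 5.80) and 6.35-fold lower on day 14 (5.08 to 8.04), and the intervals of day 4 and the later days were far apart. Psmb10, the counterpart of Psmb7, stood at 98.3 CPM (92.9 to 104), 58.7 CPM (54.3 to 63.2) and 40.6 CPM (35.3 to 46.4), each day below the one before. That is 2.42-fold lower on day 14 than on day 4 (2.10 to 2.81). Psmb9, the counterpart of Psmb6, stood at 14.5 CPM (12.5 to 16.8), 4.30 CPM (3.19 to 5.67) and 11.3 CPM (8.60 to 14.5). It was 3.38-fold lower on day 7 than on day 4 (2.46 to 4.71) and on day 14 its interval overlapped that of day 4, from 184, 50 and 60 UMIs.

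The peptide transporter had few UMIs. Tap1, the first transporter subunit, stood at 15.5 CPM on day 4 (13.4 to 17.9), 8.60 CPM on day 7 (7.00 to 10.5) and 10.1 CPM on day 14 (7.62 to 13.2), with day 4 above both later days. Tap2, its partner, stood at 7.65 CPM (6.20 to 9.33), 7.74 CPM (6.22 to 9.51) and 11.6 CPM (8.93 to 14.9), with day 14 higher than day 4 by a ratio of 1.52 (1.09 to 2.11). The subunits of the transporter thus differed in opposite directions between day 4 and day 14. Tapbp stood at 120 CPM (114 to 126), 128 CPM (121 to 134) and 192 CPM (181 to 204), highest on day 14 by a ratio of 1.60 to day 4 (1.48 to 1.74).

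B2m was the most counted member, with 68.3%, 75.2% and 74.8% of the summed member counts of days 4, 7 and 14. It stood at 3546 CPM (3513 to 3579), 3797 CPM (3762 to 3833) and 4555 CPM (4498 to 4613), each day above the one before. On day 14 it was 1.28 times its day 4 level (1.26 to 1.30). H2-K1 stood at 821 CPM (806 to 837), 642 CPM (627 to 656) and 906 CPM (881 to 932), lowest on day 7. H2-D1 stood at 475 CPM (463 to 487), 382 CPM (371 to 394) and 350 CPM (334 to 366), lowest on day 14. Summed over all cells, the heavy chains thus parted after day 7. On day 14 H2-K1 was at 1.41 times its day 7 level (1.36 to 1.46) and H2-D1 was at a ratio of 0.915 (0.866 to 0.966). They did not part within the class of cells that was described on both days, as given below.

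**Figure D1:**
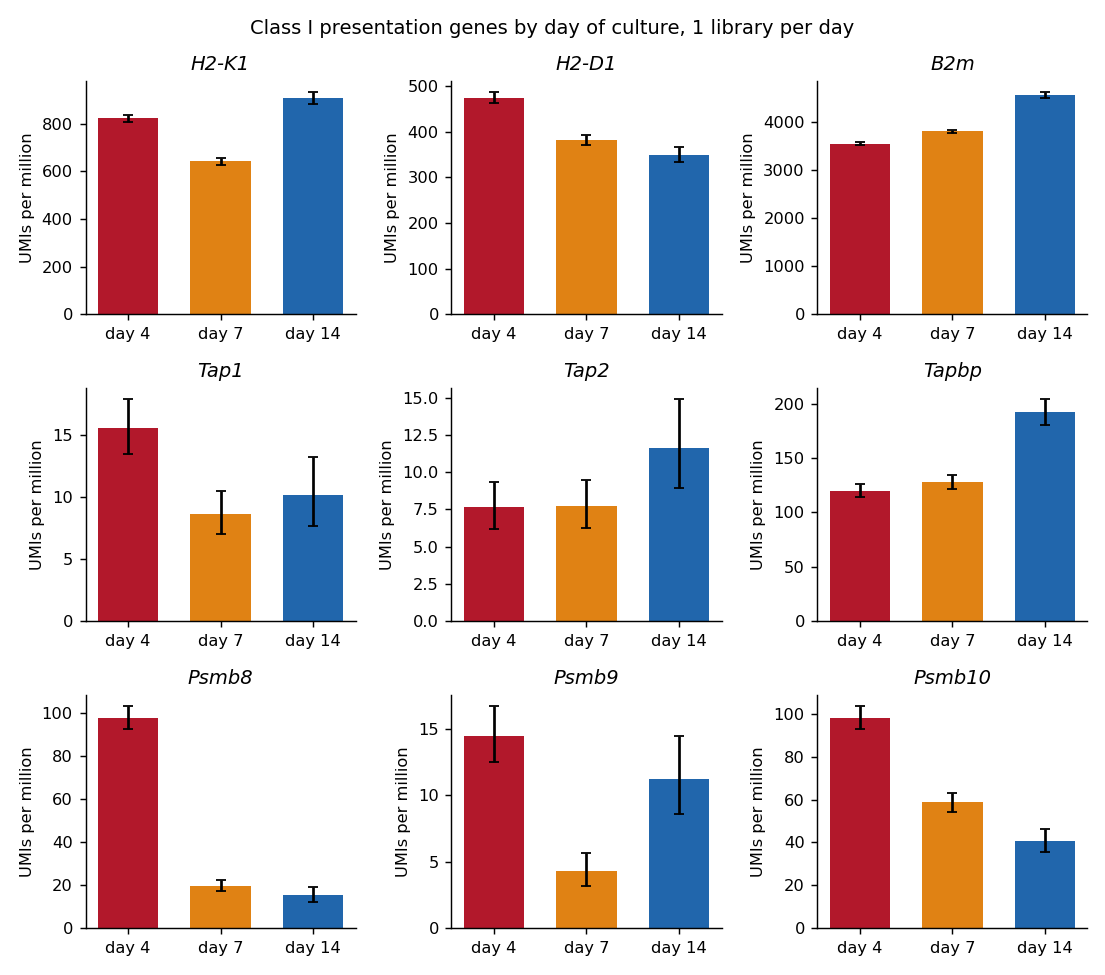
CPM of the 9 genes on days 4, 7 and 14 (bars, linear axes from 0, 1 library per day), with exact Poisson 95% intervals as error bars. Psmb8 stands at 97.8 CPM on day 4 and at 15.4 CPM on day 14, while B2m and Tapbp are highest on day 14.

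To set these ratios against all genes, the 8190 genes with a mean of at least 10 CPM over the days were used, and a 2-fold difference on the log2(CPM + 1) scale was counted. Of the 9 members, 8 had that mean. Psmb9 (10.0 CPM) and Tap1 (11.4 CPM) were just above the limit and Tap2 (9.01 CPM) just below it. Psmb9 (4.30 CPM on day 7) and Tap1 (8.60 CPM on day 7) passed it only through their higher levels on days 4 and 14. Counts that call them lower on day 7, here and within the classes below, therefore lean on that filter. From day 4 to day 7, 2 of the 8 members (Psmb8 and Psmb9) were 2-fold lower, against 1.92% of all genes, and 0 were 2-fold higher, against 1.76%. Psmb8, at a log2 ratio of -2.27, was lower than all but 0.293% of the genes, and Psmb9, at -1.55, than all but 0.891%. From day 4 to day 14, Psmb8 and Psmb10 were 2-fold lower, against 15.3% of all genes, and 0 members were 2-fold higher, against 10.9%. From day 7 to day 14, Psmb9 was 2-fold higher, against 8.28% of all genes, and 0 were 2-fold lower, against 13.9%. That ratio of Psmb9 rests on 50 and 60 UMIs and came to 0.91 on the log2 scale when each cell was given equal weight. The median log2 ratio of the 9 genes was -0.36, -0.34 and 0.26 in these comparisons, beside 0.07, -0.14 and -0.20 over all genes.

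**Figure D2:**
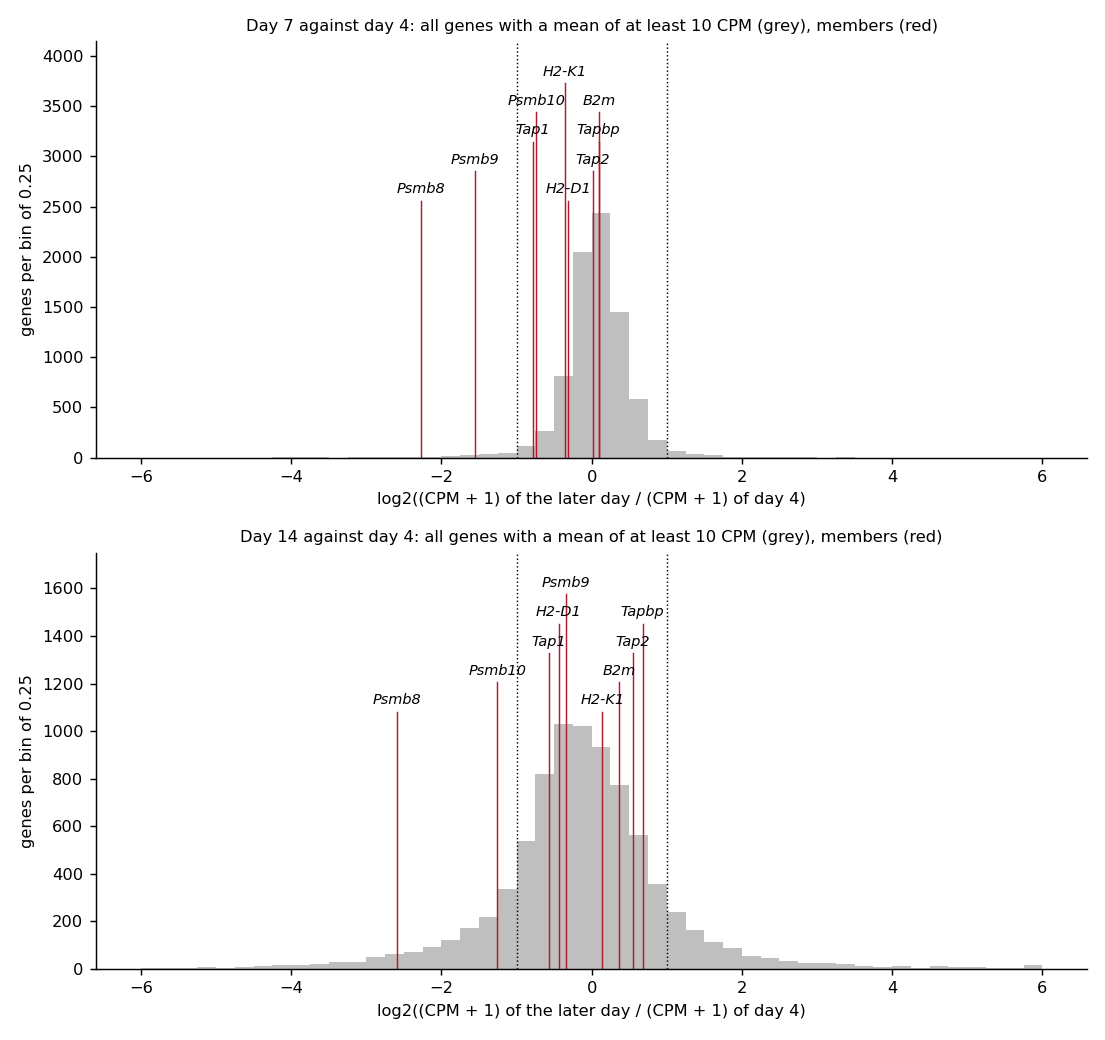
Number of genes (vertical axis, grey) by log2 ratio of CPM + 1 to day 4, in bins of 0.25, for day 7 (upper) and day 14 (lower), over the 8190 genes with a mean of at least 10 CPM, with ratios beyond 6 put in the end bins. Red lines mark the 9 genes (Tap2 lies below the limit) and dotted lines 2-fold, and Psmb8 lies at -2.27 and -2.59.

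Of the constitutive catalytic subunits, Psmb5 and Psmb6 stayed near their day 4 level and Psmb7 was 1.45 times higher on day 14 (1.23 to 1.7). Psmb5 stood at 116, 119 and 120 CPM, Psmb6 at 362, 338 and 364 CPM, and Psmb7 at 31.3, 39.3 and 45.3 CPM. Psmb8 therefore made up 45.8% of the UMIs of the Psmb8 and Psmb5 pair on day 4 (exact Clopper-Pearson 95% interval 43.9 to 47.7%), 14.1% on day 7 (12.5 to 15.9%) and 11.4% on day 14 (9.14 to 13.9%). Psmb10 made up 75.8% of its pair with Psmb7 (73.7 to 77.9%), then 59.9% (57.0 to 62.7%) and 47.3% (42.6 to 52.0%). Psmb9 made up 3.85% of its pair with Psmb6 (3.32 to 4.44%), then 1.26% (0.934 to 1.65%) and 3.01% (2.30 to 3.85%). Over the pairs together, the inducible share was 29.3% on day 4 (28.3 to 30.2%), 14.3% on day 7 (13.4 to 15.1%) and 11.3% on day 14 (10.2 to 12.4%). Within a class of cells the shares of a day were close to each other, at 28.9% to 30.1% in the classes of day 4 and 10.3% to 11.2% in those of day 14, and ranged from 12.7% to 21.2% on day 7.

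**Figure D3:**
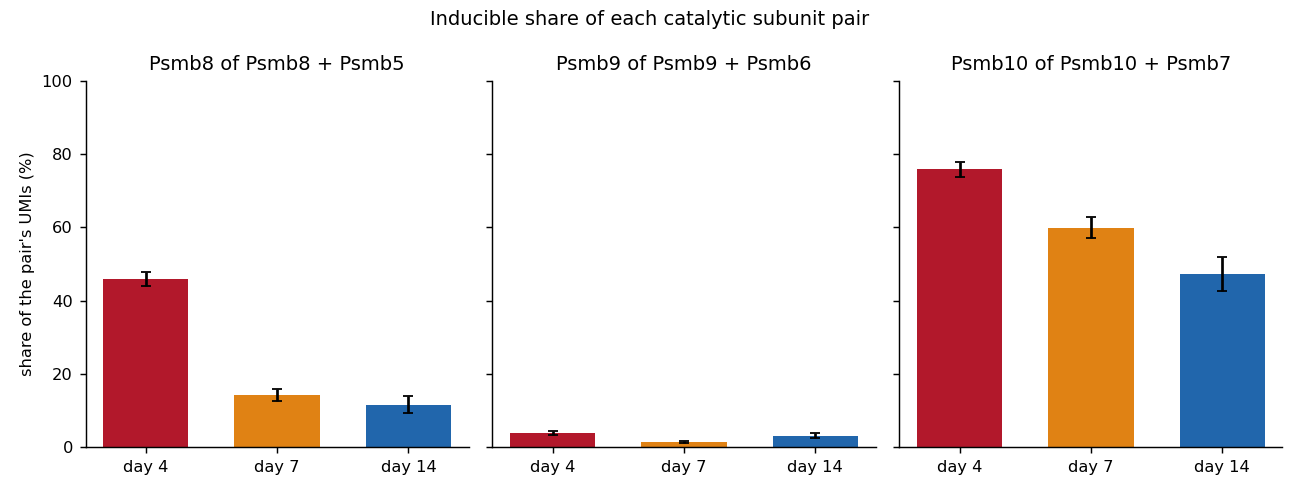
Share (%) of the UMIs of each inducible and constitutive subunit pair that belonged to the inducible subunit on days 4, 7 and 14, with exact 95% binomial intervals. The Psmb8 share stands at 45.8% on day 4 and 11.4% on day 14, and the Psmb9 share stays under 5%.

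The rest of the proteasome did not share the pattern of Psmb8. None of 11 other 20S subunits was 2-fold different on day 7 or day 14 from day 4, with medians of 0.01 and -0.37 on the log2 scale and Psma4 lowest on day 14 at -0.49. Of 9 activator and assembly genes, 0 were 2-fold different. The interferon-responsive activator subunits Psme1 (116, 72.2 and 109 CPM) and Psme2 (212, 140 and 153 CPM) were lowest on day 7 and are named after their values were seen. Among 12 genes of peptide trimming and loading, 10 had a mean of at least 10 CPM and 0 of them were 2-fold different. The glucosidase subunit Ganab and the loading chaperone Calr were highest relative to day 4 on day 14 (log2 ratios 0.69 and 0.57), and the peptidases Tpp2 and Erap1 lowest (-0.72 and -0.58).

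Among 15 other class I and class I-like heavy chains, 14 were in the table and 4 had a mean of at least 10 CPM. Fcgrt, which recycles antibodies and albumin, stood at 81.7, 76.4 and 282 CPM, 2-fold higher on day 14, and Mr1, which presents vitamin metabolites, had a log2 ratio of 0.95. H2-T22 (-0.40) and H2-T23 (0.32), a ligand of inhibitory receptors, were not 2-fold different. The scarce H2-Q4 (8.36, 3.96 and 2.07 CPM) and H2-Q7 (8.76, 1.63 and 1.69 CPM), named after their values were seen, were highest on day 4. Of 12 class II presentation genes, 10 were in the table and 2 had the needed mean. Ifi30, a lysosomal thiol reductase, and Ctss, a protease that macrophages also make, were 2-fold higher on day 14 (log2 ratios 2.37 and 4.47), Ifi30 on day 7 too, while Ciita, the master regulator of class II, held 4, 1 and 0 UMIs. Of 8 immune surface ligands, 3 had the mean, and the adhesion molecule Vcam1 alone was 2-fold different on day 14 (3.17), with Icam1 lowest at -0.28.

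Interferon-stimulated genes were lower on the later days, as Psmb8 was. Of 36 interferon-stimulated genes, 30 had a mean of at least 10 CPM, and 25 of them were 2-fold lower on day 7 and 24 on day 14, with 0 higher on either day and medians of -1.94 and -2.66. Ifi27l2a (1631, 244 and 22.3 CPM) and Ifi44 (63.8, 3.35 and 0.188 CPM) were lowest on day 14, while Ifi27 (314, 430 and 502 CPM) and Bst2 (466, 225 and 705 CPM) were higher on day 14 than on day 4. All 5 of 13 interferon-inducible GTPase genes with that mean were 2-fold lower on both days, with Gbp3 at 75.9, 5.07 and 1.5 CPM, Irgm1 at 370, 170 and 25 CPM, and Gbp7 (41.4, 11.9 and 11.5 CPM) and Gbp2 (33.4, 15.4 and 4.51 CPM) least far below on day 14. Among regulators of class I transcription, Irf9, a part of the complex that type I interferons activate, stood at 58.4, 18.5 and 12.8 CPM, 2-fold lower on both later days. Irf1, an activator of these genes, stood at 17.2, 12.6 and 10.5 CPM. Rela (0.02) and Irf2 (-0.08) had log2 ratios near 0 on day 14. Nlrc5, the known coactivator of class I genes, held 4, 2 and 2 UMIs, too few for a difference to be seen.

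Of 17 genes for interferons, their receptors and signalling, 12 were in the table and 8 had the mean. Relative to day 4, 0 were 2-fold different on day 7. On day 14 Ifnar2 was 2-fold higher (80.8, 97.4 and 177 CPM), and Jak2 (35.3, 20.7 and 10.3 CPM) and Ifngr1 (88.0, 105 and 34.4 CPM) were 2-fold lower, with Tyk2 next below Ifnar2 at 0.15. Ifng held 0 UMIs in each library, which allows up to 3 UMIs per library. Whether the interferon-stimulated genes and Psmb8 share a cause was not tested.

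Cells were clustered without the members and the interferon lists among the variable genes, and clusters were named by markers. These gave 5 classes, each "-like" by its markers: proliferating progenitor-like (1111 cells), differentiating myofibroblast-like (2292), ECM myofibroblast-like (1327), differentiating Leydig-like (880) and Leydig-like (468). The naming thresholds were set after clusters had been seen, and a difference from the study's own cell states may come from these rebuilt names. A cluster of 46 cells led by macrophage and germ cell genes (Lyz2, Ctss, Prm1) had no name. One differentiating myofibroblast-like cluster of 743 cells, with a median of 1171 UMIs, was led by interferon genes (Ifi27l2a, Zbp1, Gbp3). A class in a library was described from 50 cells, which left 9 groups. The differentiating Leydig-like cells of days 4 and 7 were mostly in 1 cluster, led by Eln, and those of day 14 mostly in another, led by Slc38a5 and Mmp2.

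Psmb8 was high in each class of day 4 and low in most classes of later days. Its day 4 level was 113 CPM in the proliferating progenitor-like class (102 to 126), 92.4 CPM in differentiating myofibroblast-like cells (86.2 to 98.9) and 55.1 CPM in differentiating Leydig-like cells (30.8 to 90.8). On day 7 it stood at 63.7 CPM in the 104 differentiating myofibroblast-like cells (39.5 to 97.4), from 21 UMIs in 10 cells. It stood lower at 27.8, 21.5 and 14.3 CPM in the proliferating progenitor-like, differentiating Leydig-like and ECM myofibroblast-like cells. On day 14 it stood at 13.8 CPM in differentiating Leydig-like cells (9.0 to 20.2) and 12.6 CPM in Leydig-like cells (9.11 to 17.1), which did not differ beyond counting error.

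Within proliferating progenitor-like cells, the class best filled on both days, Psmb8 was at a ratio of 0.245 on day 7 to day 4 (0.188 to 0.315), Tap1 at 0.361 (0.203 to 0.614) and Psmb9 at 0.459 (0.249 to 0.810). These 3 of 8 members were 2-fold lower, against 2.20% of all genes, and 0 were 2-fold higher, against 2.22%. Both heavy chains were lower there too, H2-D1 at a ratio of 0.700 (0.644 to 0.759) and H2-K1 at 0.717 (0.671 to 0.766), and B2m was at 0.880 (0.855 to 0.907), unlike its sum over all cells, which was higher on day 7. In differentiating Leydig-like cells from day 4 to day 7, Psmb8 and Psmb9 were 2-fold lower, against 5.18% of all genes, and 0 members were higher, against 12.3%, from only 86 cells on day 4. In differentiating myofibroblast-like cells over the same days, Psmb10 alone was 2-fold lower, against 6.31% of all genes, with 0 higher, against 4.30%, and Psmb8 was at a ratio of 0.690 (0.425 to 1.06). In differentiating Leydig-like cells from day 7 to day 14, Psmb10 alone was 2-fold lower, against 6.00% of all genes, with 0 higher, against 4.00%. Psmb8 was at 0.641 there (0.354 to 1.17), H2-K1 at 0.900 (0.826 to 0.982) and H2-D1 at 0.898 (0.798 to 1.01). The sum of H2-K1 over all cells was instead higher on day 14.

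Classes of the same day were compared next. On day 7 Psmb8 ranged from 14.3 CPM in ECM myofibroblast-like to 63.7 CPM in differentiating myofibroblast-like cells, with intervals that did not overlap. The higher level rests on 21 UMIs in 10 of 104 cells. A Psmb8 UMI was thus seen in 9.62% of those cells (4.71 to 17.0%). In ECM myofibroblast-like cells the share was 6.65% (5.35 to 8.16%), so a few cells held the higher level. On day 4, 0 of 8 members were 2-fold apart between differentiating myofibroblast-like and proliferating progenitor-like cells, against 0.904% of all genes higher and 3.87% lower, and the median over the 9 genes was 0.06. On day 7, Psmb9 alone (2.71 against 6.66 CPM, from 20 and 18 UMIs) was 2-fold lower in ECM myofibroblast-like than in proliferating progenitor-like cells, against 4.63% of all genes, with 0 higher, against 1.27%. Tap2, below the limit on the mean, was at 9.77 against 3.70 CPM there (ratio 2.64, 1.36 to 5.74). In the same comparison B2m (1.39, 1.36 to 1.43), Tapbp (1.34, 1.17 to 1.54) and H2-K1 (1.24, 1.17 to 1.31) were higher. Psmb8 was lower (0.514, 0.378 to 0.700), and Psmb10 slightly lower (0.825, 0.691 to 0.989), so these members parted within 1 library. Summed over the members, proliferating progenitor-like cells held the fewest UMIs of their day on both days, 4913 CPM on day 4 and 4008 CPM on day 7. Across the 9 groups Tap2 was listed at 0 UMIs in the day 4 differentiating Leydig-like and the day 7 differentiating myofibroblast-like cells, where 3 UMIs would have been 11.0 and 9.11 CPM.

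On day 14, 0 of 8 members were 2-fold apart between Leydig-like and differentiating Leydig-like cells, against 3.09% of all genes higher and 6.43% lower. The heavy chains went in opposite directions. H2-K1 stood at 1022 CPM in Leydig-like cells and 701 CPM in differentiating Leydig-like cells (ratio 1.46, 1.37 to 1.55), and H2-D1 at 308 and 372 CPM (ratio 0.827, 0.751 to 0.912). H2-K1 made up 76.8% of the UMIs of the heavy chain pair in Leydig-like cells (75.6 to 78.1%), the highest of the 9 groups, and 59.8% to 67.9% in the other 8. B2m was nearly level between these classes (ratio 1.06, 1.03 to 1.09), and Tapbp was at 0.954 (0.838 to 1.09). Psmb10 was at 1.42 (1.05 to 1.94). The differentiating Leydig-like class had a median of 2193.5 UMIs per cell and the Leydig-like class 5165, and the part of this gap in the result was not tested. With each cell given equal weight, H2-K1 kept a log2 ratio of 0.54, while the median over the 9 members changed sign, as given below. Over the comparisons, this weighting shifted 54 single-gene log2 ratios by up to 1.15.

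**Figure D4:**
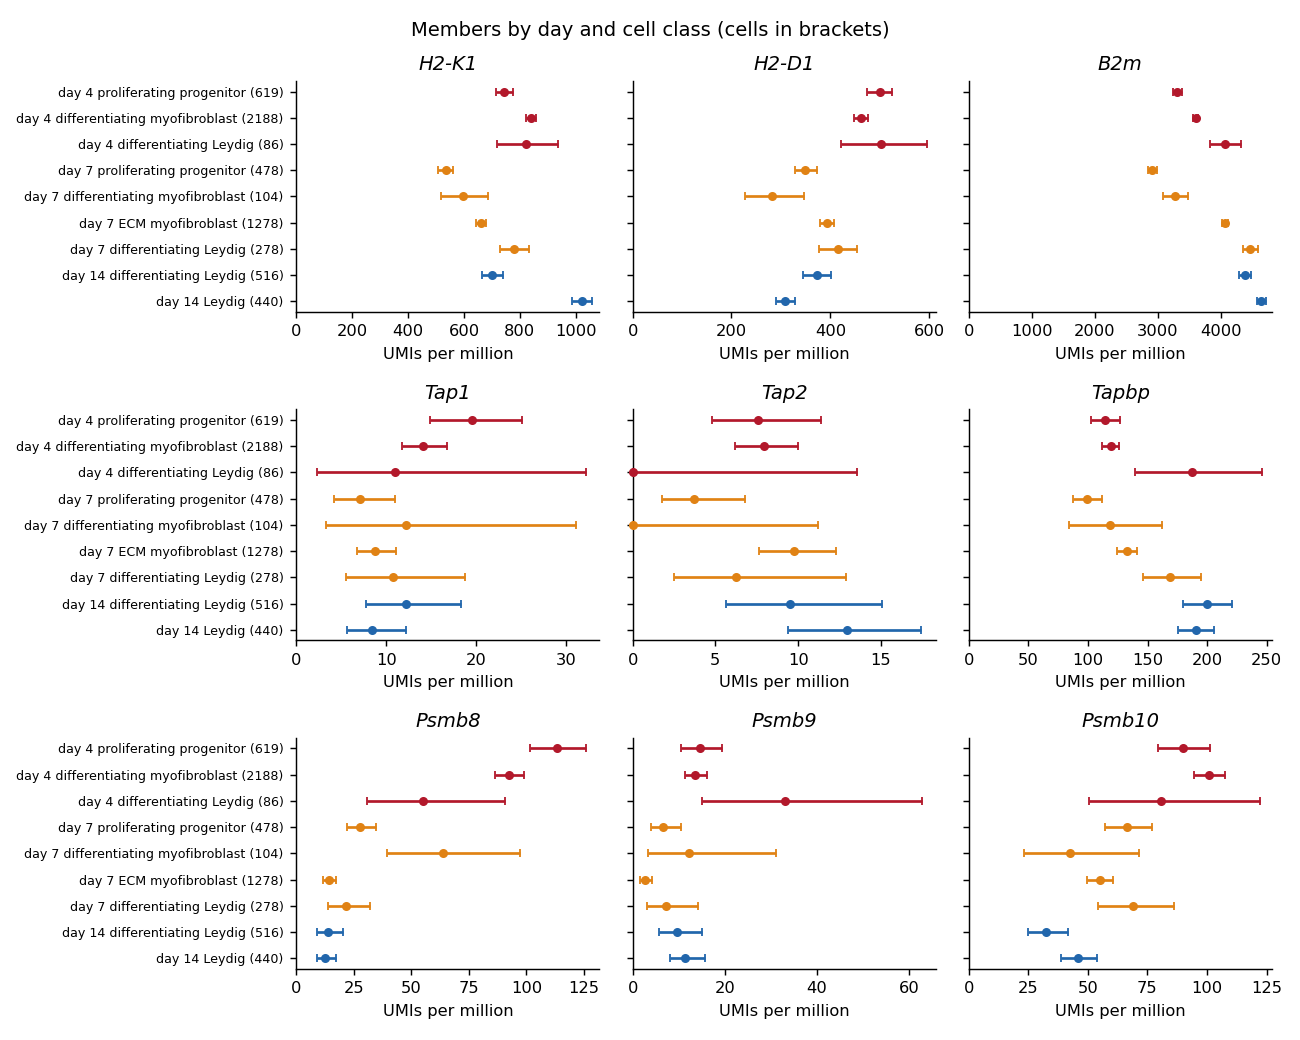
CPM of each gene in the 9 groups of day and class with at least 50 cells (points, number of cells in brackets), with exact Poisson 95% intervals. Psmb8 lies between 55.1 and 113 CPM in the classes of day 4 and at 12.6 and 13.8 CPM in those of day 14, while H2-K1 is highest in Leydig-like cells at 1022 CPM.

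The order of the groups differed between members. Over the 9 groups, H2-K1 ranged 1.91-fold, from 534 CPM in day 7 proliferating progenitor-like to 1022 CPM in day 14 Leydig-like cells, and B2m 1.59-fold between the same groups. Tapbp ranged 2.01-fold, from 99.2 CPM in day 7 proliferating progenitor-like to 200 CPM in day 14 differentiating Leydig-like cells. It was high in each differentiating Leydig-like group (187, 169 and 200 CPM on days 4, 7 and 14) and in day 14 Leydig-like cells (190 CPM). H2-D1 ranged 1.78-fold and was highest in day 4 differentiating Leydig-like cells (503 CPM). The proteasome members ranged more widely, Psmb8 8.96-fold, Psmb9 12.2-fold and Psmb10 3.13-fold, and Tap1 ranged 2.77-fold. The range of Psmb9 rests on 9 UMIs in the 86 day 4 differentiating Leydig-like cells (33.0 CPM, 15.1 to 62.7), and the next highest group stood at 14.5 CPM over a lowest of 2.71 CPM. Across the groups, which share libraries, B2m followed Tapbp most closely (Pearson r of log2(CPM + 1) 0.91, n = 9 groups), and B2m and Psmb8 went opposite ways (r = -0.61). Outside the members, the 5 genes most like their summed level, of 3391 with a mean of at least 50 CPM over the groups, were Tmem87b (r = 0.91), Eif2s3y (0.90), Cdk2ap2 (0.88), Gria3 (0.88) and Gstm5 (0.87). That sum is mostly B2m.

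Counted per cell, members differed in how widely they were seen. A B2m UMI was seen in 98.7% of day 4 cells, 98.4% of day 7 cells and 99.3% of day 14 cells. An H2-K1 UMI was seen in 80.4%, 78.7% and 84.7%, and in 68.4%, 59.8% and 68.8% of cells brought to 1500 UMIs by random thinning, which left out 753, 429 and 179 cells. A Psmb8 UMI was seen in 27.3% of day 4 cells (25.8 to 29.0%), 8.01% of day 7 cells (6.91 to 9.24%) and 6.89% of day 14 cells (5.38 to 8.66%), and after thinning in 13.2%, 3.21% and 2.27%. Within the thinned cells of a day, the variance of Psmb8 UMIs over cells was 0.979 to 1.11 times the mean. That of B2m was 1.7 to 1.86 times the mean. Psmb8 had a mean of only 0.0227 to 0.149 UMIs per thinned cell, beside 5.44 to 6.72 for B2m. At so low a mean the ratio lies near 1, the value of plain counting, over a wide range of spreads. It therefore does not show which gene was more even over cells. No class of these cells should lack class I genes, so no background share from free RNA could be set.

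Among day 4 cells of at least 1500 UMIs, those with more interferon-inducible GTPase UMIs also held more of most members. Among day 4 cells thinned to 1500 UMIs to count the list, 1042 had 0 GTPase UMIs, 694 had 1, 404 had 2 or 3, and 87 had 4 or more. Psmb8 stood at 81.8, 92.6, 126 and 172 CPM in these groups, 2.11 times higher in the last than in the first (1.65 to 2.67). Tap1 stood at 12.1, 15.2, 18.7 and 45.1 CPM (ratio 3.74, 2.20 to 6.14) and Psmb9 at 11.9, 12.8, 19.2 and 32.8 CPM (2.76, 1.49 to 4.83). H2-D1 (1.42, 1.26 to 1.60), H2-K1 (1.34, 1.22 to 1.47), Psmb10 (ratio 1.48, reaching 133 CPM) and B2m (from 3389 to 4029 CPM) followed, and Tapbp had a ratio of 1.08 (0.822 to 1.41). Tap2 was too scarce (34 and 3 UMIs) to compare. The cells are of 1 library, and the groups are a description of it. The 753 day 4 cells left out by thinning are not in them. Many cells of the cluster led by interferon genes, with its median of 1171 UMIs, are thus missing. In the 696 day 4 cells of that cluster, Psmb8 stood at 106 CPM (85.9 to 129), H2-D1 at 428 CPM (386 to 472) and Tap1 at 14.0 CPM (7.47 to 24.0). Over all day 4 cells these genes stood at 97.8, 475 and 15.5 CPM.

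On the later days few cells had such UMIs and the order was not steady. On day 7 Psmb8 stood at 16.1 CPM in the 1334 cells with 0 GTPase UMIs (13.5 to 19.1), 28.3 CPM in the 332 with 1 (22.1 to 35.9) and 14.2 CPM in the 70 with 2 or 3 (5.71 to 29.3). The ratio of the last to the first was 0.881 (0.347 to 1.87), and the 6 cells with more were not read. On day 14 the 59 cells with 1 UMI had Psmb8 at 10.1 CPM, and those with 0 at 15.9 CPM (0.634, 0.168 to 1.69). The intervals of these ratios are wide. By the full interferon-stimulated list, 2181 of the 2227 thinned day 4 cells had 4 or more UMIs, so the fixed UMI numbers left no second group of 50 cells on that day. Between the cells with 4 or more list UMIs and the lowest group of at least 50 cells, the median log2 ratio of the 9 genes was 0.18 on day 7 (against 0 UMIs) and 0.16 on day 14 (against 1 UMI). With the cells of a day ranked by the same list and divided into 4 equal groups instead, the median between the top and bottom groups was 0.34, 0.31 and 0.01 for days 4, 7 and 14. Without the 5 most abundant list genes it was 0.34, 0.14 and -0.01. On day 4 Psmb8 was 1.55 times higher in the top than in the bottom group (1.30 to 1.84), at 118 and 76.4 CPM.

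**Figure D5:**
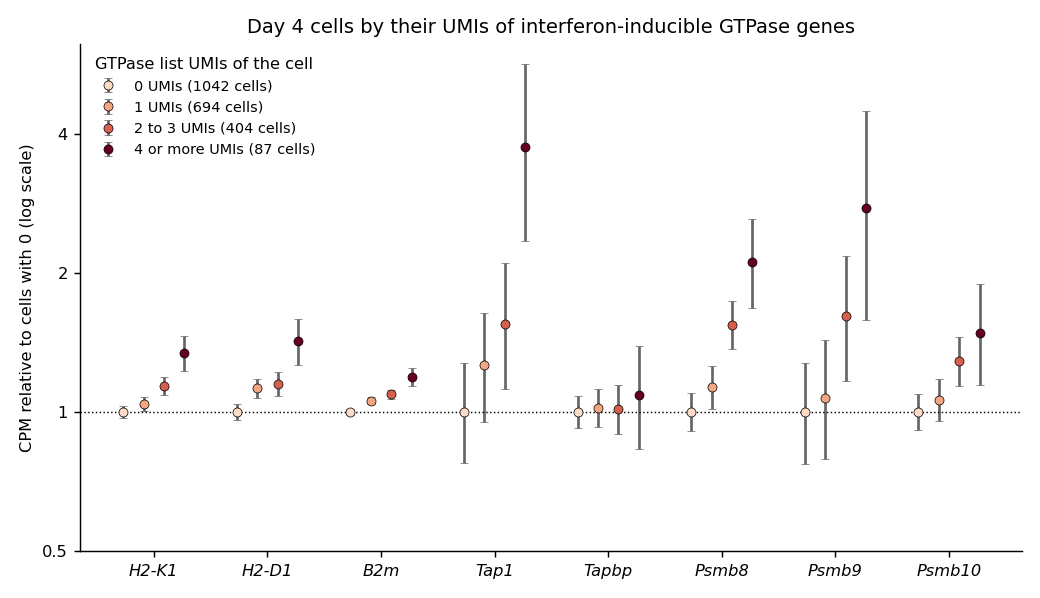
CPM of 8 of the 9 genes in day 4 cells grouped by their UMIs of 13 GTPase genes, relative to cells with 0 (log axis), with exact Poisson 95% intervals of each group's level. Tap1, Psmb9 and Psmb8 lie highest in the 87 cells with 4 or more UMIs, at 3.74, 2.76 and 2.11, and Tapbp lies at 1.08.

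Other cells were few by their markers. The 14 macrophage genes summed to 15, 31.1 and 252 CPM on days 4, 7 and 14, and 1, 2 and 1 of them were at 0. Lyz2 stood at 4.10, 19.4 and 200 CPM, most of the sum on days 7 and 14, and was the 1 gene of the list with a mean of at least 10 CPM, 2-fold higher on both later days. The defining genes Ptprc (0.316, 0.344 and 2.82 CPM), Csf1r (2.76, 2.32 and 1.88 CPM) and Cd68 (0.710, 3.53 and 8.83 CPM) were scarce. Cells set apart by at least 2 UMIs of macrophage genes numbered 7, 10 and 10. This set is too small to hold all cells with Lyz2. On day 14 Lyz2 stood nearly level between Leydig-like and differentiating Leydig-like cells (log2 ratio -0.05). Without the set, the median log2 ratio of the 9 genes was -0.35 from day 4 to day 7, where it had been -0.36. Other cells with Lyz2 stayed in. Over the 54 single-gene log2 ratios recomputed without these cells, the largest shift was 0.15. In the 46 cells of the unnamed cluster, H2-D1 stood at 1326 CPM, H2-K1 at 1292 CPM and Psmb8 at 186 CPM, higher than in any other cluster. Lymphocyte genes summed to 4.10, 5.16 and 0.751 CPM and endothelial genes to 93.8, 128 and 36.1 CPM, mostly Cdh5 (2-fold lower on day 14), with Pecam1 at 1.97, 2.24 and 0 CPM. Sertoli genes summed to 116, 515 and 632 CPM, mostly Clu (2-fold higher on both later days), with Sox9 2-fold lower on day 14. The paper names Clu among the genes of its matrix-depositing myofibroblasts, so this sum is not a measure of Sertoli cells. Amh, of the same list, held 0 UMIs. Germ cell genes summed to 138, 24.6 and 61.0 CPM, highest on day 4 like Psmb8, and 4 of 4 with the needed mean were 2-fold lower on day 7 and 3 on day 14. The part of these cells and their free RNA in the results was not tested.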

How the data were processed

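The deposited tables hold raw UMI counts per gene and cell, which the authors made with Drop-seq tools and STAR on GRCm38 without normalization. The submitters' processing notes name STAR 2.5.2a, Picard 2.6.0 and SAMtools 1.2. The paper's methods name a later STAR version, and which of them made the tables is not settled here. The merged count table (6124 culture cells, after the authors removed cells under 500 genes or over 10% mitochondrial UMIs) was used, its entries equal those of the day tables, and 495 of its columns, of freshly sorted cells, were not used. There is 1 library per day, sequenced in 1 batch, so no test was run. Counts were summed and scaled to CPM, and log2 ratios used a pseudocount of 1 CPM. Seurat 5.3.0 clustered cells (2000 variable genes, 20 components, 20 neighbours, resolution 0.8). A named cluster had at least 3 markers with 10 UMIs at 1.5 times the level of other cells (pseudocount 10 CPM), and its leading 10 genes of at least 50 CPM did not favour another class. Scrublet called 0, 2 and 1 doublets, so none was removed, and leaving out the 6% of highest scores served as an alternative. Python 3.11.15 with scipy 1.17.1 and edgeR 4.0.16 (TMM only) were used, with seed 1, and calls were checked on simulated counts. The 9 members, the gene lists and the rule for named genes (the members, up to 2 genes at either end of each list with a mean of at least 10 CPM, fixed regulators and markers, and the 5 most alike) were chosen with earlier results of these data known. 1 gene of the regulator list is not reported here.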

Additional observations from a re-analysis of the deposited data

How the results depend on the processing

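The day comparisons kept the direction of the members' median under no cell filter and a stricter filter (800 genes, 5% mitochondrial UMIs). They kept it without cells of high doublet scores and without the small set with macrophage UMIs given above. Equal weight per cell, totals without mitochondrial and ribosomal genes, TMM scaling and a pseudocount of 10 CPM kept it too. Under TMM the median from day 4 to day 7 was -0.44 (from -0.36). With a pseudocount of 10 CPM 1 member in place of 2 was 2-fold lower from day 4 to day 7, since Psmb9 came to -0.78, and 0 in place of 1 were 2-fold higher from day 7 to day 14. With equal weight per cell that count was also 0, the median from day 7 to day 14 was 0.24 (from 0.26), and the day 14 median of Leydig-like against differentiating Leydig-like cells was -0.12 in place of 0.08, a change of sign; the cause was not tested. The day 4 median of differentiating myofibroblast-like against proliferating progenitor-like cells was then -0.15 in place of 0.06. Other clusterings (resolutions 0.4 and 1.2, 10 and 30 components, list genes kept) kept the sign of the members' median in each comparison of classes within a day. Fixed UMI numbers of the full interferon list gave no value for day 4. The ranking into 4 equal groups, also without the 5 most abundant list genes, and the longer ISRE-type word were added after seeing the data. The shares of cells with a Psmb8 or H2-K1 UMI were lower after thinning to 1500 or 1000 UMIs. Tap1, Tap2 and Psmb9 had 50 to 197 UMIs per library, which limits what can be seen of them. No paired analysis was possible because each day has 1 library, and no library could be left out.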
